A study of Rattus norvegicus with 3 samples.

Results

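The Janus kinases Jak1, Jak2 and Jak3, the transcription factors Stat3, Stat5a and Stat5b, and the feedback inhibitors Socs1, Socs2, Socs3 and Cish were followed in blood mononuclear cells (lymphocytes and monocytes) of rats in a comparison of uphill with downhill running. The 10 genes were taken by symbol from the deposited expression matrix, in which they hold 14 of 31099 probe sets, the groups of short probes that each report a transcript. They are 10 of 13892 genes with a probe set of their own. Their RNA was measured on the Affymetrix Rat Expression Array 230 2.0. There were 3 groups with 1 array each, namely control, treadmill running downhill and treadmill running uphill, all of 2-month-old male Sprague-Dawley rats. Cells came from 2 ml of a mixture and 100 ng of RNA was labelled. The labels do not say what the mixture was, how many rats stood behind an array, how long they ran or when blood was drawn. Without replicates there was no test, and every difference below is one between these arrays, not shown to hold for the conditions.

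Cytokines such as interleukins, interferons and colony-stimulating factors bind receptors that have no kinase of their own and carry Janus kinases on their cytoplasmic tails. The activated kinases phosphorylate STAT proteins, which pair, enter the nucleus and bind DNA at the spaced palindrome TTCNNNGAA. Among the genes that STATs switch on are Cish and the Socs genes, whose products block the receptor or the kinase and so close a feedback loop that shapes lymphocyte survival and myeloid responses.

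Promoters are shown for 3 of the 10 genes. They are Cish and Socs1, whose promoters hold the palindrome, and Stat3, the gene whose level differed most between arrays. The reference tables, from RefSeq on GRCr8, held a 300-base promoter (250 bases before to 50 after the start) for 7 of the 10 genes. Jak1, Jak3 and Socs2 had none, so they were not searched. Each is written from 5′ to 3′ on the gene's strand, with TTCNNNGAA in capitals. The palindrome reads the same on both strands, and no 2 matches overlapped.
Cish (chr8:116850719-116851018, plus strand): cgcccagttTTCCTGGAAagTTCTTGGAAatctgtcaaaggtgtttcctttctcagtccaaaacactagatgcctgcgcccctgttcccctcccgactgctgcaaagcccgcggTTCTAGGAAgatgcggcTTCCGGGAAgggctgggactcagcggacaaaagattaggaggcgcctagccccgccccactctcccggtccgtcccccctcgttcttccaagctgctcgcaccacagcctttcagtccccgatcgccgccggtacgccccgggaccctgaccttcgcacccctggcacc
Socs1 (chr10:5389324-5389623, plus strand): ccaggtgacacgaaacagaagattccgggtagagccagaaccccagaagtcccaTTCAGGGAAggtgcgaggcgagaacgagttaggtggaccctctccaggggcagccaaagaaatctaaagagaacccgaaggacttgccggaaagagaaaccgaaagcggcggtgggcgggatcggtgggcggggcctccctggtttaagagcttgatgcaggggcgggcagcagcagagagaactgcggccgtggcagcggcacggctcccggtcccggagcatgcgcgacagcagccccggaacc
Stat3 (chr10:86363310-86363609, minus strand): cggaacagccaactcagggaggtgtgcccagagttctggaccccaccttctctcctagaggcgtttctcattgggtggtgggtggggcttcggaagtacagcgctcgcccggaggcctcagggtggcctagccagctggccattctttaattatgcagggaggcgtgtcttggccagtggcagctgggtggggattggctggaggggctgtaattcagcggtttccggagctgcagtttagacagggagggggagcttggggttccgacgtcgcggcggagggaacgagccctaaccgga
The Cish promoter held 4 matches, TTCCTGGAA, TTCTTGGAA, TTCTAGGAA and TTCCGGGAA, whose first bases lie at -241, -230, -136 and -119 from the start. Socs1 held 1, TTCAGGGAA at -196. Of 33469 promoters of this length, 2970 (8.87%) held at least 1 match, 8 held 3 or more and 2 held 4 or more. No match was found in the windows of Stat3, Jak2, Stat5a, Stat5b and Socs3. Sequence outside these windows was not searched, so a gene without a match here may hold one elsewhere. A match is a stretch of letters and was not measured here as a bound site.

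The kinases were all called present on the 3 arrays, and their levels differed little. Jak1, which serves most cytokine receptors, had 2 probe sets. Its brighter probe set (1383478_at) gave an intensity of 7893 on the control, 7390 on the downhill and 8946 on the uphill array. The other (1384060_at) gave 1251, 1016 and 1249 in that order. On the Rnor3.4 assembly they aligned to chromosome 5, at 121804128 to 121804931 and 121805059 to 121808414 of the minus strand. In the deposited annotation the first had no RefSeq match, while 11 probes of the second matched the RefSeq transcript. The first, being brighter, stood for Jak1 in the counts. Downhill was the lowest array by both, while uphill was the highest by the first and level with control by the second. The log2 difference between downhill and control was -0.10 by the first and -0.30 by the second, and that between uphill and control was 0.18 and -0.0016. In bulk RNA such a difference can come from fewer cells of a type or from less RNA per cell, and these cannot be told apart.

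Jak2, the kinase of the erythropoietin, growth hormone and granulocyte-macrophage colony-stimulating factor receptors, gave 988 on the control, 734 on the downhill and 911 on the uphill array. It had the largest downhill difference of the 10 genes among those bright enough to be counted, 1.35-fold lower than control (log2 difference -0.43). Of the 7265 genes counted in this comparison, 449 (6.18%) were at least as far lower. Its probe set (1368856_at) spans chromosome 1 from 232915920 to 232975078 on the plus strand. A gene was counted where the brighter of the 2 arrays reached an intensity of 353, the median of all gene values.

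Jak3, which pairs with the common gamma chain of the interleukin-2 receptor family in lymphocytes, gave 743 on the control, 738 on the downhill and 955 on the uphill array. Downhill differed from control by -0.010 on the log2 scale, and uphill stood 1.29-fold above control (log2 difference 0.36). At least as large a difference upward was seen for 770 of 7320 genes (10.5%). Its probe set (1368251_at) aligned to chromosome 16, at 18878940 to 18889452 of the plus strand. Uphill was thus highest and downhill lowest for Jak3 and for the brighter Jak1 probe set, and control was highest and downhill lowest for Jak2 and, by a small margin over uphill, for the other Jak1 probe set. The downhill array was the lowest for Jak1, Jak2 and Jak3, but not for Tyk2, a Janus kinase outside the 10 genes (given below). The sign for Jak3 against control turned under other scalings of the arrays (log2 difference 0.019 after quantile normalization and 0.015 after cyclic loess).

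**Figure D1:**
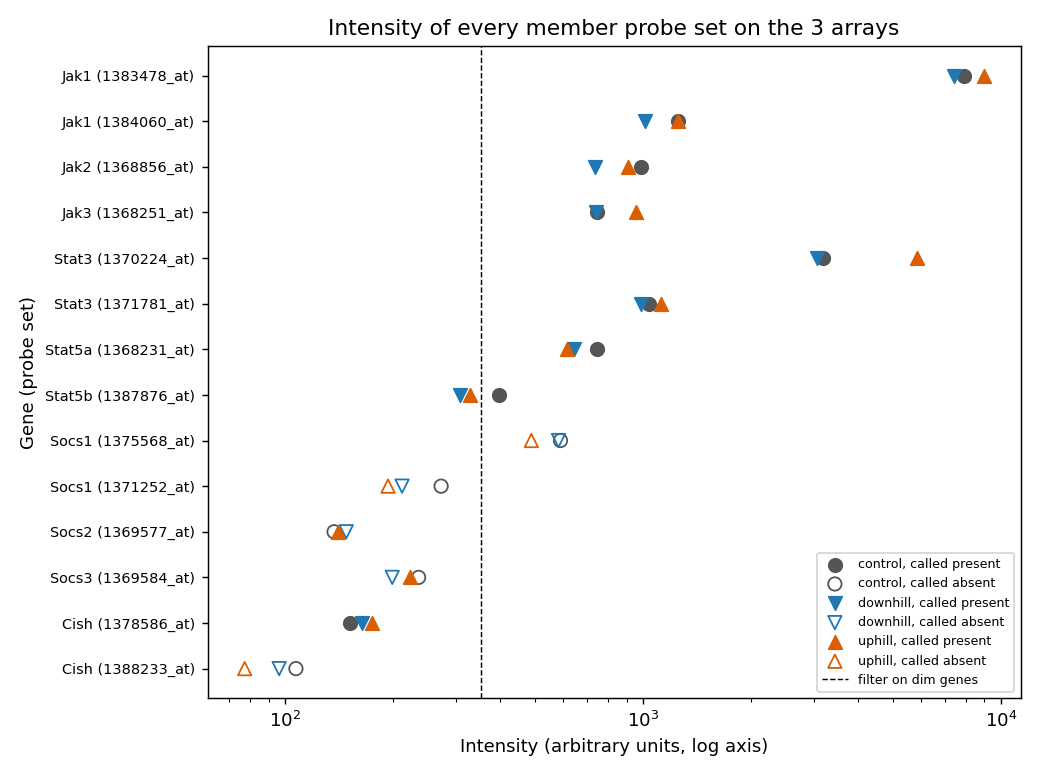
Intensity (log axis, arbitrary units) of each of the 14 probe sets on the control, downhill and uphill arrays; filled symbols were called present, open symbols absent, and the dashed line marks the filter at 353. The uphill symbol of the brighter Stat3 probe set stands apart at 5819, and most symbols of Socs1, Socs2 and Socs3 are open.

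Among the transcription factors Stat3 differed most. Stat3 carries signals of interleukin-6, interleukin-10 and granulocyte colony-stimulating factor. Its brighter probe set (1370224_at) gave 3186 on the control, 3061 on the downhill and 5819 on the uphill array. The uphill array was 1.83-fold above control (log2 difference 0.87) and 1.90-fold above downhill (log2 difference of downhill against uphill -0.93), while downhill and control differed by -0.06. Of 7320 genes, 87 (1.19%) were at least as far above control on the uphill array, and of 7170 genes 37 (0.516%) were at least as far below uphill on the downhill array.

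The other Stat3 probe set (1371781_at) did not show a difference of that size. It gave 1043, 991 and 1120 in the same order, a log2 difference of 0.10 between uphill and control and -0.18 between downhill and uphill. Both probe sets put uphill highest and downhill lowest. For uphill against control they differed from each other by 0.77 on the log2 scale. The brightest and next brightest probe sets of 1150 genes, all called present on every array, differed by a median of 0.19 in this comparison, and 3.57% of those genes differed by as much as Stat3. On the Rnor3.4 assembly the brighter probe set aligned to chromosome 10 (89822353 to 89846521, minus strand) and the other to 89821072 to 89821735, 617 bases away towards the 3′ end of the gene. Of their probes, 10 and 11 respectively match the RefSeq transcript in the deposited annotation. With the mean of both probe sets the uphill difference from control was 0.49. Which probe set is nearer to the change in Stat3 RNA was not tested.

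Measures of cell makeup and RNA quality also differed between the arrays. The 7 erythroid markers summed to 2444 on the control, 2236 on the downhill and 7103 on the uphill array, with 4, 4 and 7 of them called present. The 8 neutrophil markers summed to 35799, 16086 and 32986, with 8, 7 and 8 called present, and the 9 monocyte markers to 29862, 51506 and 49598, with 8, 9 and 8. The 7 T cell markers summed to 28858, 27481 and 27987 and the 5 natural killer cell markers to 21991, 24668 and 24080, all called present on every array. The 4 B cell markers summed to 8124, 7746 and 9242 and the 6 platelet markers to 55904, 47564 and 51482. Mononuclear cell markers were thus detected, and markers of red cell precursors, neutrophils and platelets with them. Intensity of the 3′ probe set over that of the 5′ probe set, a measure of RNA integrity, came to 2.39, 2.87 and 2.68 for actin and 1.18, 1.20 and 1.32 for GAPDH. The erythroid sum and the GAPDH ratio were highest on the uphill array, as was Stat3, while the actin ratio was highest on the downhill array. The part of cell makeup and RNA quality in the Stat3 difference was not tested.

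Stat5a and Stat5b are close relatives that carry signals of interleukin-2, interleukin-7 and growth hormone, and both were highest on the control array. Stat5a gave 743 on the control, 641 on the downhill and 615 on the uphill array, log2 differences from control of -0.21 and -0.27. Stat5b gave 396, 309 and 330, differences of -0.36 and -0.26, and its downhill and uphill values lay under the filter. The downhill array of Stat5b was 1.28-fold below control, and 675 of 7265 genes (9.29%) were at least as far lower. Stat5b was counted through its control value alone, so its direction against control was fixed by the filter. Stat5a differed by 0.06 between the running arrays. The deposited annotation lists 8 of the 11 Stat5b probes as also matching another transcript record, and none of the Stat5a probes in this way. Which gene that record belongs to was not examined, so the Stat5b level may include RNA of another transcript. The Stat genes are neighbours on chromosome 10 of Rnor3.4. The Stat5b probe set aligned to 89716623 to 89743134 on the minus strand and that of Stat5a to 89795403 to 89819732 on the plus strand, which ends 1339 bases from the nearer Stat3 probe set on the opposite strand. On the uphill array Stat3 was thus above control while its neighbours Stat5a and Stat5b were below it.

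**Figure D2:**
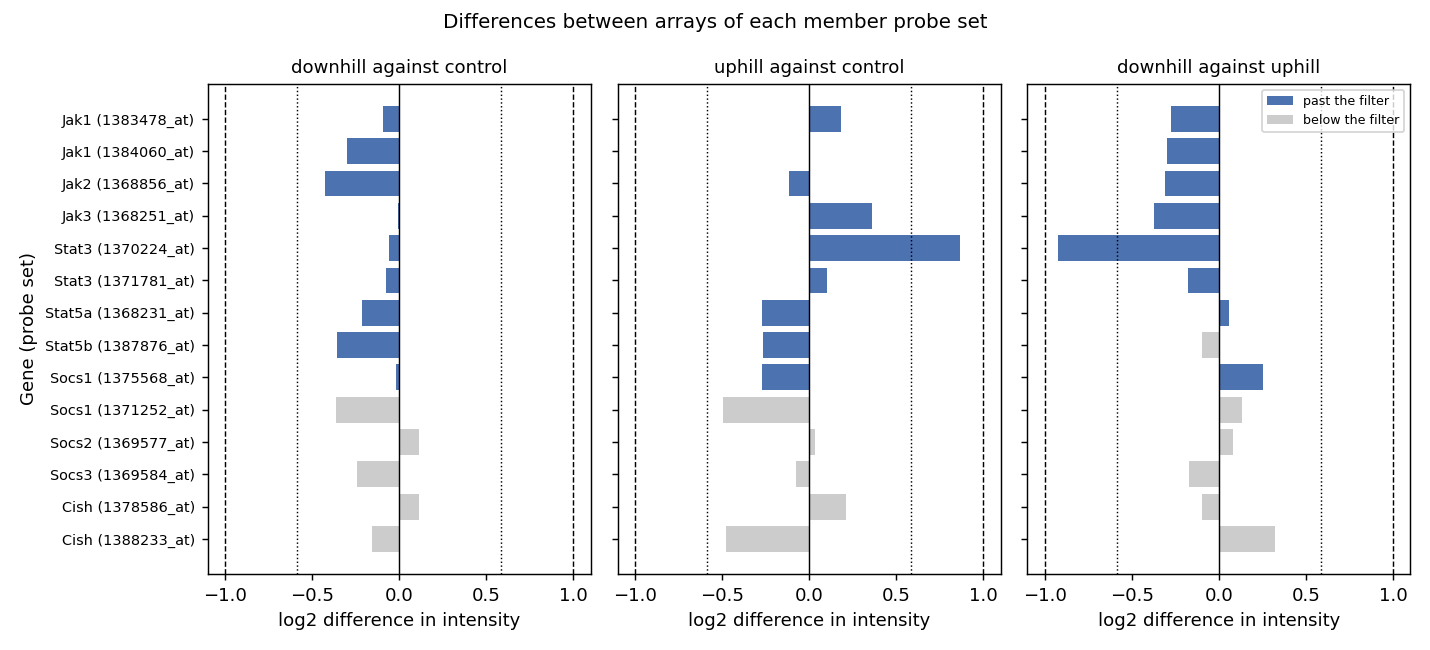
Log2 difference in intensity of each of the 14 probe sets in the 3 comparisons; grey bars lie below the filter, dotted lines mark 1.5-fold and dashed lines 2-fold. No bar reaches 2-fold, and the brighter Stat3 probe set passes 1.5-fold in both comparisons with the uphill array.

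The feedback inhibitors were dim or not detected. Socs1, which blocks the kinases directly and is induced by interferon gamma, was called absent by both probe sets on all 3 arrays. Its brighter probe set (1375568_at) gave 589, 581 and 488 on the control, downhill and uphill arrays, and the other (1371252_at) gave 273, 212 and 194. The brighter probe set is tied to the gene through a transcript cluster, with no RefSeq match in the deposited annotation. It aligned to the minus strand at 4820485 to 4821024 of chromosome 10 (Rnor3.4), overlapping the plus-strand alignment of the other by 125 bases. The Socs1 promoter shown above is also on the plus strand, so whether the brighter probe set reports Socs1 RNA was not settled. Socs1 entered the counts by that probe set, and the other lay under the filter. Both were lowest on the uphill array, but values called absent are background and give no fold.

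Socs2, an inhibitor of growth hormone signalling, gave 137, 148 and 141 on the control, downhill and uphill arrays. Socs3, which binds the interleukin-6 receptor subunit gp130 and restrains Stat3, gave 236, 199 and 224. The Socs2 probe set (1369577_at) lies on chromosome 7 (32605713 to 32608323) and that of Socs3 (1369584_at) on chromosome 10 (107958467 to 107959330), each on the minus strand. Both were called present on the uphill array only, where neither had its highest value. Both lay under the filter on every array, and the log2 difference of Socs3 between uphill and control was -0.075.

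Cish, a target of Stat5 that restrains interleukin-2 and T cell receptor signalling, was called present on all arrays by 1 of its 2 probe sets. That probe set (1378586_at) gave 152, 164 and 176 in the same order, a log2 difference of 0.11 for downhill and 0.21 for uphill against control. The other (1388233_at) was called absent throughout and gave 107, 96.4 and 77.2, the opposite order. They aligned to chromosome 8, at 112545500 to 112546052 and 112544036 to 112545045 of the plus strand. Both lay under the filter, so Cish entered no count. The gene with 4 STAT palindromes in its promoter was therefore near the limit of detection on each array. The order given by its absent probe set is one of background values.

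As a group, none of the 10 genes differed 2-fold between any of the arrays. Of the 7 genes past the filter against control (Jak1, Jak2, Jak3, Stat3, Stat5a, Stat5b and Socs1), each by its brightest probe set, 0 were at least 2-fold higher on the downhill array, where 0.826% of 7265 genes were, and 0 at least 2-fold lower, where 0.275% were. On the uphill array the counts were 0 and 0, against 0.833% and 0.464% of 7320 genes. Between downhill and uphill 6 were past the filter, with 0 at least 2-fold higher on the downhill array and 0 lower, against 0.335% and 0.474% of 7170 genes. At 1.5-fold, Stat3 alone was counted, higher on uphill than on control, where 3.28% of genes were, and lower on downhill than on uphill, where 2.20% were. Of the 7 genes, 0 were at least 1.5-fold higher or lower on the downhill array than on control, against 3.33% and 2.34% of all genes. None was 1.5-fold lower on uphill than on control, where 3.07% were, or higher on downhill than on uphill, where 2.16% were. A count of 1 among 7 is too small to be set apart from such shares.

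The median log2 difference of the 7 genes between downhill and control was -0.10, and all 7 were lower, from -0.43 for Jak2 to -0.010 for Jak3. Stat5b was among the 7 only through its control value (396), since both running values lay under the filter. It could therefore count only as lower than control, for downhill and for uphill alike. Over all 7265 genes the median was -0.0050 and 50.7% were lower. Without Socs1, which was never called present, the median over the other 6 genes was -0.15, and over the 7 genes it was -0.20 with the mean of all probe sets of a gene. The smallest differences, those of Jak3 and Socs1, turned positive after quantile normalization or cyclic loess. Between uphill and control 3 of the 7 (Jak1, Jak3 and Stat3) were higher and 4 lower, with a median of -0.12 against 0.028 for all genes. The median was 0.032 without Socs1 and -0.020 over all 10 members with no filter. Between downhill and uphill the 4 genes Jak1, Jak2, Jak3 and Stat3 were lower on the downhill array and Stat5a and Socs1 higher, with a median of -0.29 against -0.025, or -0.13 over all 10 members with no filter. The first 2 comparisons share the control array and each pair of comparisons shares an array, so they are not independent.

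**Figure D3:**
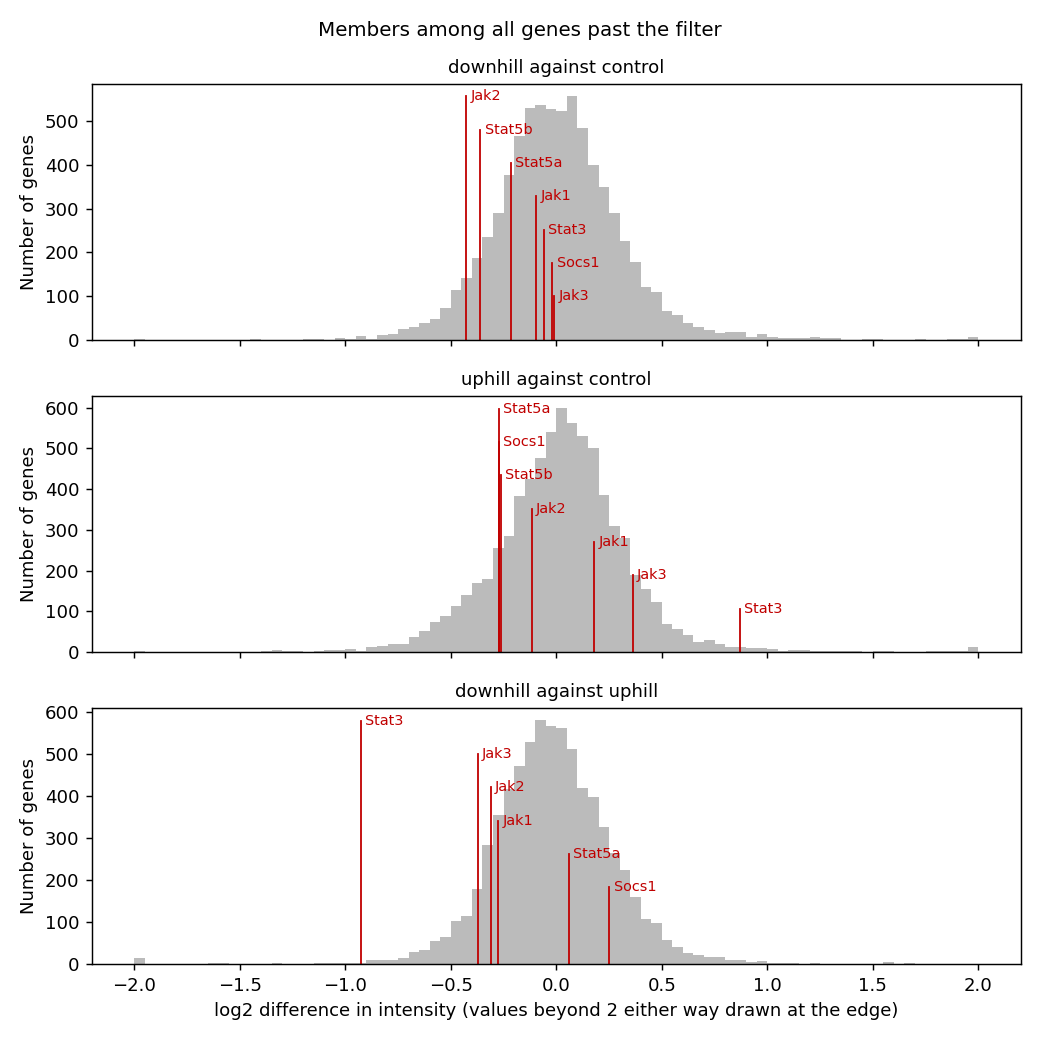
Number of genes (grey) by log2 difference in each comparison, for all genes past the filter, with the members past it marked by red lines whose height carries no value. Stat3 lies in the upper tail for uphill against control (0.87) and in the lower tail for downhill against uphill (-0.93), and the other members lie within 0.43 of 0.

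The rest of the pathway was read from 6 gene lists by role. Of 18 receptors that use Janus kinases and were past the filter, 16 were above control on the uphill array, where 54.5% of all genes were, with a median log2 difference of 0.25 against 0.028. On the downhill array 12 were above control, against 49.3% of all genes, with a median of 0.16 against -0.0050. Both counts include Epor, whose values were background (log2 difference 0.32 for uphill and 0.77 for downhill). These counts were not tested. Ifngr1, the ligand-binding chain of the interferon gamma receptor, gave 6190, 7421 and 10777 on the control, downhill and uphill arrays. Csf2ra, the granulocyte-macrophage colony-stimulating factor receptor chain, gave 1414, 2233 and 1946. Il2rb, shared by the interleukin-2 and interleukin-15 receptors, gave 1084, 1482 and 1517. Il7r, the interleukin-7 receptor of T cells, gave 1583, 1621 and 2191. No receptor differed 2-fold. Ifngr1 passed 1.5-fold on the uphill array (1 of 18, against 3.28% of all genes), and on the downhill array Csf2ra and Epor did (2 of 18, against 3.33%), of which Epor was called absent on every array. Csf2ra is a myeloid receptor, and the monocyte sum given above was also higher on both running arrays. Its part in the receptor values was not tested.

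The cytokines themselves were mostly not detected. Of 19 cytokine genes with a probe set of their own, 6 were called present on any array and 2 passed the filter. Clcf1, a cytokine of the interleukin-6 family, gave 638 on the control, 486 on the downhill and 525 on the uphill array. Il15, which supports natural killer cells, gave 1085, 1258 and 1030. Neither reached 1.5-fold.

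Of 18 STAT3 and STAT5 target genes past the filter, 12 were below control on the downhill array, where 50.7% of all genes were, with a median log2 difference of -0.21 against -0.0050. On the uphill array 12 were below control, against 45.5% of all genes, with a median of -0.10 against 0.028. Both counts include Ccnd1, which was called absent on every array (log2 differences -0.001 and -0.15). The list was not split by whether STATs raise or lower a gene, so these counts do not measure STAT activity. These counts were not tested. Bcl6, a repressor of lymphocyte differentiation, gave 2297, 1755 and 1479. Ccnd2, a D-type cyclin, gave 1674, 1131 and 1401. Bcl2l1, which encodes the survival protein Bcl-xL, gave 1403, 982 and 891 by its brightest probe set (log2 differences -0.52 and -0.65), but its other probe sets gave 0.08 to 0.16 for downhill and 0.0037 to 0.20 for uphill against control. Gadd45g, a stress and growth arrest gene, was highest on the downhill array, with 411, 656 and 340. At 1.5-fold, Gadd45g was counted as higher on the downhill array (1 of 18, against 3.33% of all genes), and Bcl6 and Bcl2l1 were counted as lower on the uphill array (2 of 18, against 3.07%). The other 6 targets were above control on the uphill array, from a log2 difference of 0.04 for Cdkn1a to 0.28 for Bcl3.

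Negative regulators outside the SOCS family varied without a common direction. On the downhill array 7 of 12 past the filter were below control, where 50.7% of all genes were, with a median of -0.058 against -0.0050. On the uphill array 8 of 12 were below it, where 45.5% were, with a median of -0.042 against 0.028. Neither count was tested. Usp18, an inhibitor of interferon receptor signalling, gave 955, 1411 and 923. The ubiquitin ligases Cbl and Cblb went opposite ways, Cbl with 883, 1185 and 1146 and Cblb with 4636, 3489 and 4266. The tyrosine phosphatase Ptpn11 gave 6539, 5129 and 5796 by its brightest probe set, and its other one turned the sign for uphill against control, with log2 differences of 0.24 and -0.17 for the other and the brightest. Of the partners with which SOCS proteins form a ubiquitin ligase, all 3 past the filter were above control on the downhill array. Of all genes 49.3% were, and a count of 3 was not tested. On the log2 scale Rnf7 stood at 0.48, Elob at 0.25 and Cul5 at 0.16 on the downhill array. On the uphill array Rnf7 stood at 0.17, Elob at 0.14 and Cul5 at -0.08. The other Cul5 probe set gave 0.34 for downhill and 0.37 for uphill, so the uphill sign of Cul5 turned with the probe set. That of Rnf7 gave 0.21 and 0.30.

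The remaining JAK, STAT and SOCS genes differed less than Stat3. Tyk2, the fourth Janus kinase, gave 1148, 1323 and 1303 on the control, downhill and uphill arrays, and was above control where Jak2 was below it. Downhill was the highest array for Tyk2 and the lowest for Jak1, Jak2 and Jak3. Socs5 gave 2714, 2407 and 1985, and its log2 difference of -0.45 between uphill and control was close to the -0.42 of its other probe set. Socs6 gave 611, 713 and 650. Stat6, which carries interleukin-4 signals, gave 343, 320 and 363. Its log2 difference between downhill and control was -0.10 by this probe set and 0.15 by the other, so the sign turned.

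**Figure D4:**
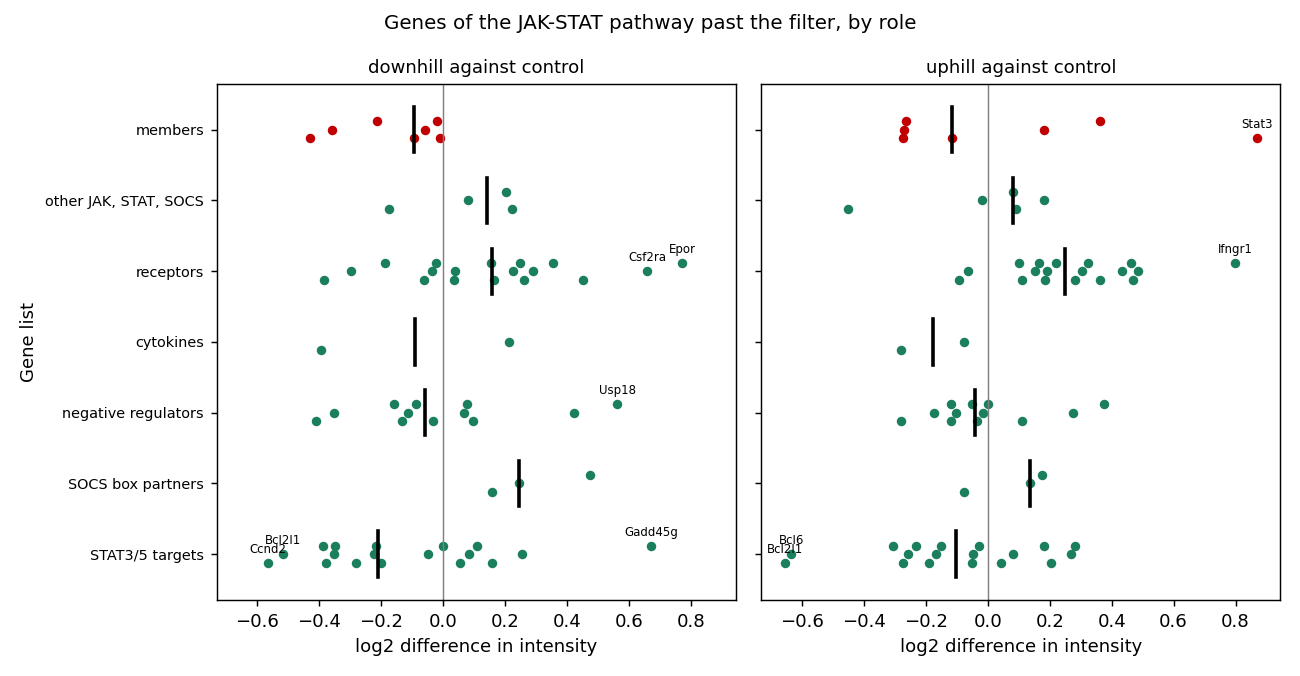
Log2 difference in intensity against control on the downhill and uphill arrays for each gene past the filter, by role in the pathway; black bars are medians and genes beyond 0.5 are named. Receptors lie mostly to the right on the uphill array (16 of 18) and STAT3 and STAT5 targets mostly to the left on both arrays (12 of 18 each).

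The genes whose values moved most like those of the 3 members with the greatest differences were found by the distance between their pairs of log2 differences from control, over 3 arrays and 6933 genes. Among the nearest to Stat3 were Bin1 (distance 0.088) and Dnajc13 (0.093). Bin1 gave 1625, 1654 and 3026 on the control, downhill and uphill arrays, again with uphill alone apart. Nearest to Jak2 were Pla1a (0.0063), Bltp3b (0.0077) and Hdac7 (0.010), and nearest to Jak3 were Zmiz1, Stradb and Idh1, at 0.0037 to 0.0067. With 3 arrays many genes share any pattern.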

How the data were processed

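The authors normalized the deposited intensity values with RMA, per the submitters' processing notes (no version stated there). Values are linear (1 to 34067), not the log2 values RMA usually gives, so a later conversion is possible. Present and absent calls were deposited without a stated algorithm. A second deposited table held equal values in all 93297 cells within 1e-06.

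Values were converted to log2 here, and symbols updated by Entrez number to GRCr8 names. The brightest probe set stood for a gene (4064 of 13892 genes have several). Genes were counted at 2-fold where the brighter array reached 353. Folds are given only where the brighter array was called present. No test was run on 1 array a group, and the small number of arrays limits precision. The counting was tested on simulated data. limma 3.58.1 in R 4.3.3 gave quantile normalization and cyclic loess (span 0.7, 3 iterations); other steps used Python 3.11.15.

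The members, lists and tests were chosen with earlier results of these data known. Named were all 10 members, up to 4 genes of each of 6 pathway lists with the largest difference of a running array from control among genes past the filter and called present on the brighter array, and the 3 genes nearest to each of the 3 members that differed most. Some results under this rule are not reported here. Epor, Ccnd1, Cdkn1a and Bcl3 were named after their values were seen. Csf3r stands in both the receptor and the neutrophil list.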

Additional observations from a re-analysis of the deposited data

Results flagged for a closer look

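Stat3, by its brighter probe set, differed between the running arrays, with a log2 difference from control of 0.87 for uphill and -0.06 for downhill. The downhill value is within the median difference between probe sets of a gene (0.14), so it is not read as a movement below control. Downhill minus uphill was -0.93. With 1 array in each group this difference was not tested. By the other probe set the values were -0.07, 0.10 and -0.18.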

How the results depend on the processing

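At a 1.5-fold threshold the count of higher members between uphill and control was 1 and the count of lower members between downhill and uphill was 1, where both were 0 at 2-fold; the gene was Stat3 each time. With the filter at the 75th percentile (963), which left 3 and 2 members, the median log2 difference was 0.18 for uphill against control (-0.12 as reported) and -0.60 for downhill against uphill (-0.29 as reported); the change follows from fewer genes. With no filter, all 10 members gave medians of -0.020 for uphill against control and -0.13 for downhill against uphill. For downhill against control (-0.10 as reported) the median was -0.20 with the mean of all probe sets and -0.15 where the brighter array had to be called present, which left out Socs1; that rule gave 0.032 for uphill against control. With the mean of all probe sets, Stat3 gave 0.49 for uphill against control and -0.55 for downhill against uphill, and Socs1 gave -0.19 for downhill against control. Of 125 values of single members under the alternatives, 122 moved by less than the median difference between probe sets of a gene (0.14, 0.19 and 0.18 in the 3 comparisons). Many of the 125 could not move, because a change of filter or call rule leaves a gene's own value as it is. So does the mean of all probe sets for a gene with 1 probe set. The 122 are thus no measure of stability. The 3 that moved further, Stat3 in 2 comparisons and Socs1 in 1, were all under the mean of all probe sets. There were 4 sign changes, all of Jak3 or Socs1 between downhill and control after quantile normalization or cyclic loess, where the reported size was at most 0.019. No count of members at 2-fold changed under any alternative run. These counts were all 0, and a stricter filter or the call rule can only remove members, so there they could not change. The unchanged counts are thus no measure of stability either. No paired analysis was possible because each group has 1 array and the labels give no replicate numbers. Dim members (Socs2, Socs3 and Cish) lie below the filter, so their differences are limited by signal over background.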
